A study of Homo sapiens with 20 samples.

Results

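The NF-kappaB genes considered here were 10 genes of the human genome, namely the 5 subunit genes NFKB1, NFKB2, REL, RELA and RELB and the 5 regulators NFKBIA, NFKBIE, NFKBIZ, TNFAIP3 and BCL3. RUNX1 binding around them was measured by chromatin immunoprecipitation with sequencing (ChIP-seq) in THP-1, a human cell line established from acute monocytic leukemia. A region bound by RUNX1 (a peak) was assigned to a gene if it lay within 50 kb of the RefSeq span of that gene on assembly GRCh38, whatever its signal, and this gave 42 of the 26642 peaks in all. Between 3 and 6 peaks fell to each gene, 21 to the subunit genes and 21 to the regulators, and no peak fell to more than 1 of the 10 genes. Within a gene the peaks were numbered from 1 in the order of their coordinates. The assignment rests on distance alone, several of these peaks overlap or lie closer to another gene, and no expression of any gene was measured in these libraries.

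The study asked where RUNX1 binds when the transcription factor PU.1 is lowered. Both groups were THP-1 cells carrying an shRNA cassette that was induced by adding doxycycline to the medium, either against PU.1 (knockdown, 6 RUNX1 libraries) or a scramble sequence (control, 6 RUNX1 libraries), so the controls had taken the drug as well. The libraries came from 2 experimental rounds, called batches in the labels, with 3 controls and 2 knockdowns in batch 1 and 3 controls and 4 knockdowns in batch 2. The libraries are replicates of 1 cell line, each with its own immunoprecipitation. The groups carry different cassettes and so are different derivatives of THP-1, and the paper's blot of PU.1 names 1 derivative for each. An effect of lower PU.1 cannot be told apart from other differences between these derivatives. Neither the PU.1 level nor markers of the cell line can be read from this assay.

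NF-kappaB is a family of dimeric transcription factors that drives inflammatory and survival genes in monocytes and macrophages. Inhibitors of the IκB class hold the dimers back in the cytoplasm until upstream kinases mark them for destruction, and several target genes of NF-kappaB encode the inhibitors themselves, which closes a feedback loop. RUNX1 and PU.1 are DNA-binding factors of the blood lineages that often occupy the same regulatory regions of myeloid cells.

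Of the 10 genes, 8 had entries in the RefSeq promoter table of assembly GRCh38.p14 (not RELB and NFKBIE), with 13 listed starts in all. Each entry spans 300 bases, from 250 before to 50 after the start. A peak overlapped 6 of these promoters, and 5 lay wholly inside a peak. Promoters of 4 genes are printed as examples of the sequence under the start peaks described below, none of which was called as changed. Not printed are another NFKB2 promoter inside the same peak (chr10:102393860-102394159), which holds a PU.1 core and no NF-kappaB match, and the RELA promoter that RELA peak 2 overlaps, which holds neither. Capitals mark the PU.1 core motif GAGGAA or the NF-kappaB consensus motif on either strand, and the sequences run 5′ to 3′ on the strand of the gene, at chr4:102501684-102501983 (plus strand, NFKB1), chr10:102394328-102394627 (plus strand, NFKB2), chr14:35404700-35404999 (minus strand, NFKBIA) and chr6:137867009-137867308 (plus strand, TNFAIP3).
NFKB1: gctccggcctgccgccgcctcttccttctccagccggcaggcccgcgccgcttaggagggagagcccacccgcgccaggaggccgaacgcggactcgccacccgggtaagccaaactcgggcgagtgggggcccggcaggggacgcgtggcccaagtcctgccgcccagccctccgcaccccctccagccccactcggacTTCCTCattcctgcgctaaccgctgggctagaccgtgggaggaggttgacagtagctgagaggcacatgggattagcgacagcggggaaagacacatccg
NFKB2: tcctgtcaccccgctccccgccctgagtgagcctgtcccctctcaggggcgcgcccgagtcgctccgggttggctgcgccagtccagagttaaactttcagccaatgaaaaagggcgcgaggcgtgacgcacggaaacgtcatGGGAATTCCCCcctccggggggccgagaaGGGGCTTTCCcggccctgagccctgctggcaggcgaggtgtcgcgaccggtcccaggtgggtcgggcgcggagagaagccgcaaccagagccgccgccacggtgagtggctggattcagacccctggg
NFKBIA: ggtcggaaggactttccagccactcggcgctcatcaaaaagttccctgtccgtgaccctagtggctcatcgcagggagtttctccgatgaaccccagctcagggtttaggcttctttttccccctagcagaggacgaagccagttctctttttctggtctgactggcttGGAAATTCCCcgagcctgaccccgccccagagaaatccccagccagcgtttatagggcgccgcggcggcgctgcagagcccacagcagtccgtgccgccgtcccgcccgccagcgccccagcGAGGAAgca
TNFAIP3: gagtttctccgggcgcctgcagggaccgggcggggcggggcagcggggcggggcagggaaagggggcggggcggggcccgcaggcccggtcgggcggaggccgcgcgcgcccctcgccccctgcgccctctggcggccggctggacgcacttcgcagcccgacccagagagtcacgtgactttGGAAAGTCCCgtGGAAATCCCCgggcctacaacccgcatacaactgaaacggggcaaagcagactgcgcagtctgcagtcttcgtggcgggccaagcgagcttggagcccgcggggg

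In the 13 promoters the RUNX motif TGTGGT was found in 0, while 13.1% of all 35116 promoters of the table held it on either strand. The PU.1 core GAGGAA was found in 4 (27.9% of all promoters), 1 each of NFKB1, NFKB2, NFKBIA and BCL3. The NF-kappaB consensus was found in 9 of the 13 promoters and in 7 of the 8 genes, that is, in all but RELA, against 5.91% of all promoters. In the printed promoters it lies at a pair of sites in NFKB2, the first made of matches on both strands that overlap each other, at a single site in NFKBIA and at a pair of sites in TNFAIP3. A motif match is a match of letters and no measure of binding.

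Reads within peaks numbered from 630247 to 1199004 per control library and from 938745 to 1719840 per knockdown library, and the median peak held 18 to 34 and 26 to 48 reads, respectively. Counts are given below divided by DESeq2 size factors (normalised counts), which centre the fold changes, so that a gain or loss of binding over the whole genome would not be seen. Differences are DESeq2 log2 fold changes (log2FC) of knockdown over control with their standard error (SE), from a model with batch as a covariate. Peaks with an adjusted p under 0.05, adjusted over all 26642 peaks, and a fold change over 1.1 were called, as gained or as lost by their sign.

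RUNX1 binding around the NF-kappaB genes changed at 13 of the 42 peaks (31.0%), with 4 gained (9.52%) and 9 lost (21.4%). Of all peaks, 42.0% were called (21.3% gained, 20.7% lost). The losses outnumbered the gains, with a lost share near that of all peaks and a lower gained share. All 4 gained peaks lay at regulators (19.0% of the regulator peaks): 2 at TNFAIP3 and 1 each at NFKBIA and BCL3. The lost peaks were spread over 5 of the subunit peaks (2 at NFKB1, 1 each at NFKB2, REL and RELA) and 4 of the regulator peaks (2 at TNFAIP3, 1 each at NFKBIE and NFKBIZ). RELB was the gene with no called peak among its 6. The median log2 fold change was -0.14 over the 42 peaks, -0.28 over the subunit peaks and -0.087 over the regulator peaks, beside -0.025 over all peaks. More than 2-fold, 1 peak was gained (2.38%, beside 8.86% of all peaks) and 5 were lost (11.9%, beside 8.20%). The changed peaks are few per gene, so these shares describe the 10 genes and were not tested against other genes.

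**Figure D1:**
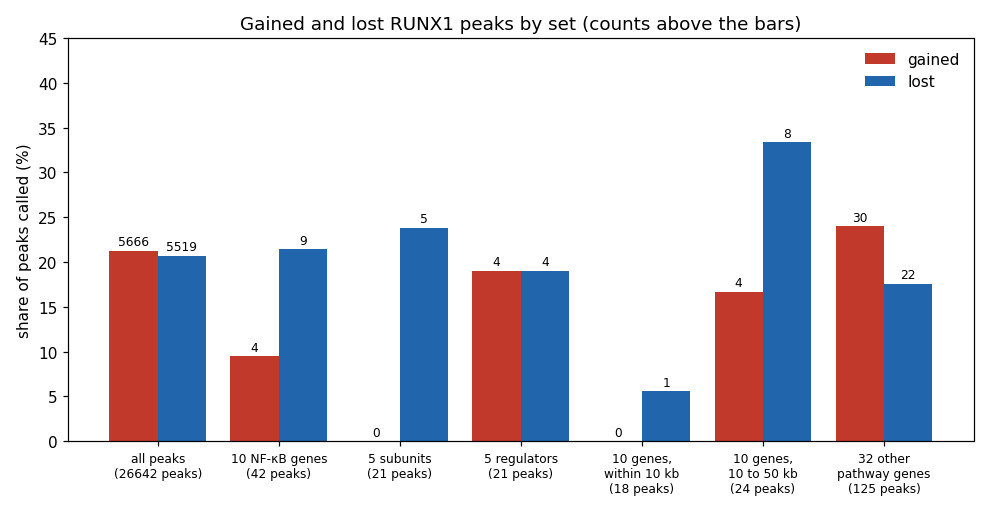
Share of peaks called gained (red) or lost (blue) in percent, with the number of peaks above each bar, for all 26642 peaks, the 42 peaks of the 10 NF-kappaB genes, subsets of these, and 125 peaks of other pathway genes. The 21 subunit peaks show 5 losses and 0 gains, and the 18 peaks within 10 kb of a gene span show 1 call.

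All but 1 of the calls lay over 10 kb from the gene span. Within 10 kb of a gene span, 1 of 18 peaks was called, and between 10 and 50 kb from it 12 of 24 (4 gained, 8 lost). Over all protein-coding genes, the same distances gave calls in 37.1% of 26296 pairs of a peak and a gene and in 38.1% of 29741 pairs, respectively, where a peak near several genes counts once for each. Several of the 18 lie within 1 kb of a gene end, where fewer peaks were called in general (below). Among the 15 peaks that overlapped the gene they were assigned to, 1 was called (6.67%), beside 38.5% of all peaks that overlap a protein-coding gene. This is the same call as the 1 within 10 kb (NFKB1 peak 4). With so few peaks, the difference from all peaks was not tested. Of the 27 peaks outside the assigned gene, 12 were called (44.4%). Of all peaks outside protein-coding genes 47.6% were called, but this set is unlike the 27, several of which overlap another protein-coding gene. Within 1 kb of an end of any protein-coding gene, 3 of 17 peaks were called, all of them lost (17.6%). Over all peaks at that distance, 25.2% were called, with 6.19% gained and 19.0% lost, so losses prevailed there in general. Farther away, 10 of 25 were called (40.0%, with 16.0% gained and 24.0% lost). Over all peaks farther away it was 47.4%, with 26.1% gained and 21.3% lost.

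**Figure D2:**
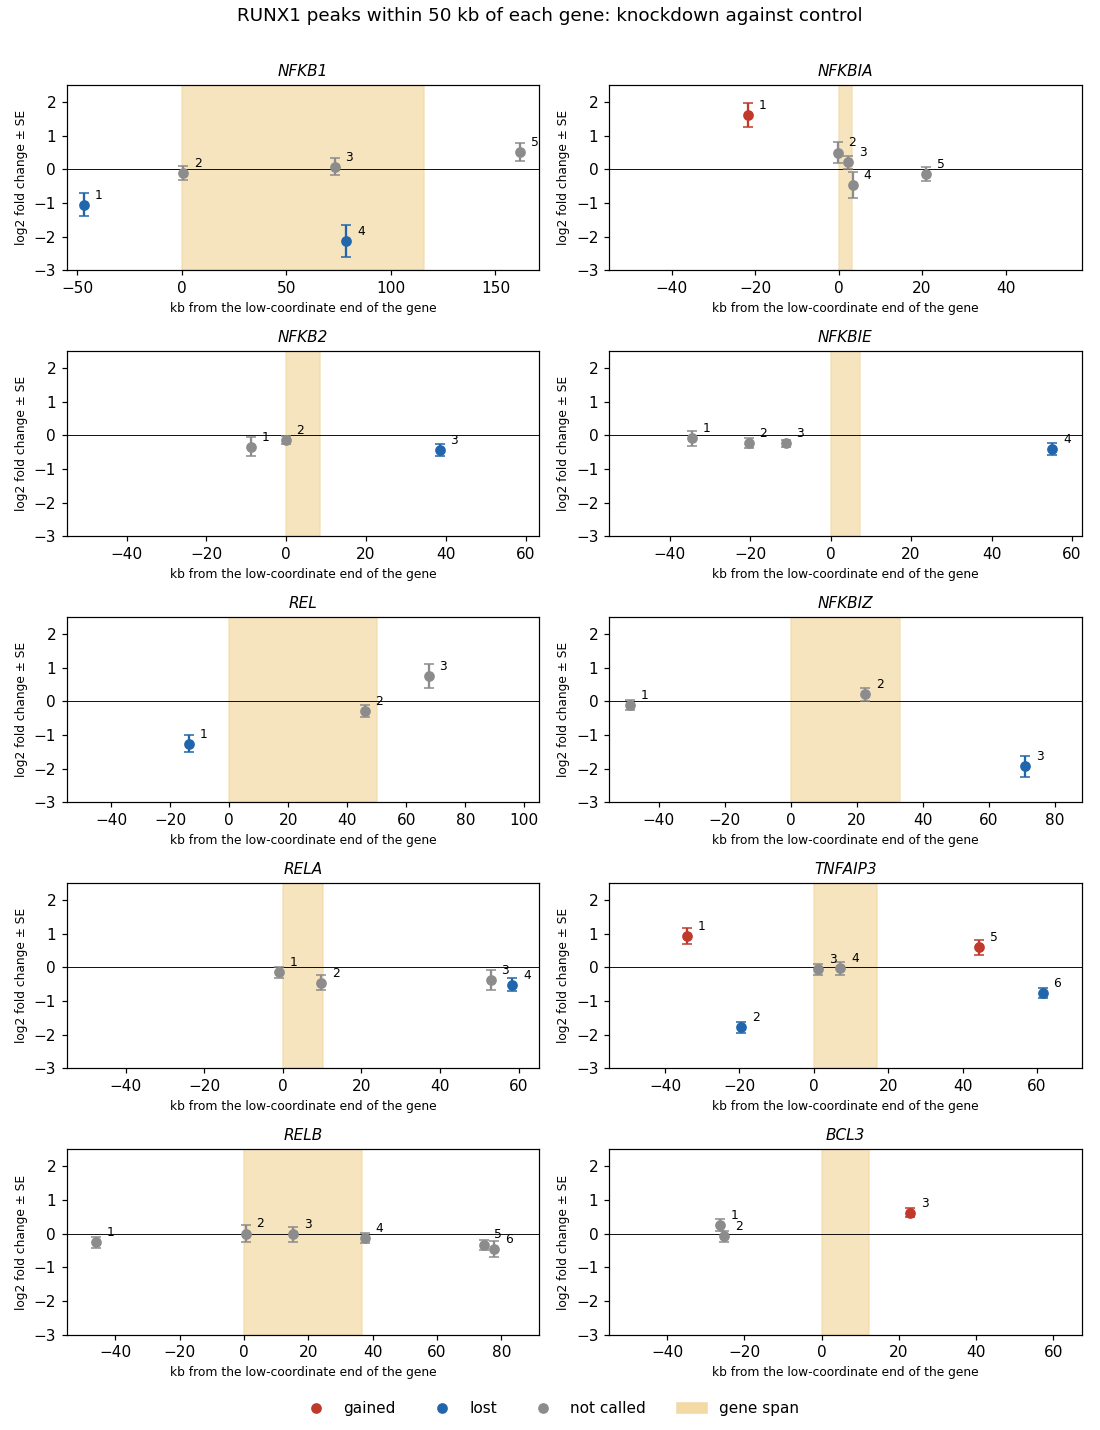
Log2 fold change ± SE (knockdown over control, DESeq2) of each of the 42 peaks against its distance in kb from the low-coordinate end of the gene, with the gene span shaded and the peak number beside each point. Points for gained peaks are red, lost peaks blue and peaks not called grey. Of the points on the shaded spans, peak 4 of NFKB1 alone is coloured.

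At the listed starts that had a peak within 1 kb, binding was not called as changed. A total of 7 peaks lay within 1 kb of a listed start (NFKB1 peak 2, NFKB2 peak 2, RELA peak 2, NFKBIA peaks 3 and 4, NFKBIZ peak 2 and TNFAIP3 peak 3), and their log2 fold changes ran from -0.47 to 0.21. REL and BCL3 had no such peak, and RELB and NFKBIE had no listed start. Of the 7 peaks 0 were called, beside 25.2% of all peaks within 1 kb of either end of a protein-coding gene. With 7 peaks, this is no evidence that starts differ from other gene ends. The strongest of them per kb was NFKB2 peak 2 (chr10:102393340-102394641), with 80.8 normalised counts per kb in control and 73.6 in knockdown cells. Its counts were 80.0 (lowest), 107.5 (median) and 120.05 (highest) in control and 86.8, 95.3 and 107 in knockdown libraries, so the knockdown libraries lay inside the control range (log2FC -0.13, SE 0.12). At the TNFAIP3 start (peak 3, chr6:137866420-137868503), control libraries ranged from 57.5 over a median of 64.9 to 117 and knockdown libraries from 56.2 over 68.4 to 83.1 (log2FC -0.053, SE 0.16). The direction at this start was not settled: it turned positive in batch 2 alone (0.14), without control replicate 1 (0.077), without knockdown replicate 1 (0.017) and after centring on the surrounding 10 Mb (0.097).

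NFKBIA, which encodes the inhibitor IκBα, had a pair of peaks at or near its start. Peak 4 covered the start and peak 3 lay 512 bp from it. Their log2 fold changes differed in sign, but neither was called. Peak 3 (chr14:35403330-35404237) had a log2 fold change of 0.20 ± 0.20 SE and peak 4 (chr14:35404401-35405516) of -0.47 ± 0.38 SE. In both, control replicate 1 stood above the other control libraries, with 71.5 against 35.7 to 42.2 at peak 3 and 93.6 against 19.6 to 45.1 at peak 4. The 6 knockdown libraries of peak 4 lay between 21.8 and 33.6, inside the range of the control libraries. At the RELA start (peak 2, chr11:65662990-65663762), counts went from 29.4 ± 4.91 to 20.9 ± 3.63 (SD, n = 6 per group; log2FC -0.46, SE 0.22, DESeq2 adjusted p 0.0817), the lowest adjusted p of the 7 start peaks. Relative to the median log2 fold change of the surrounding 10 Mb (-0.34), the change at RELA peak 2 was -0.12. Its adjusted p ran from 0.0526 to 0.707 over all alternatives. Here and below, these are 18 refits of both batches (edgeR, other size factors and models, centring, each library left out), not the fits of 1 batch. At the NFKB1 start (peak 2, chr4:102501642-102502377) the log2 fold change was -0.12 ± 0.21 SE, with a sign that turned in batch 2 alone and without control replicate 1. At NFKBIZ (peak 2, chr3:101849868-101851189) it was 0.21 ± 0.20 SE. These standard errors leave room for changes of the size of the weaker calls below.

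**Figure D3:**
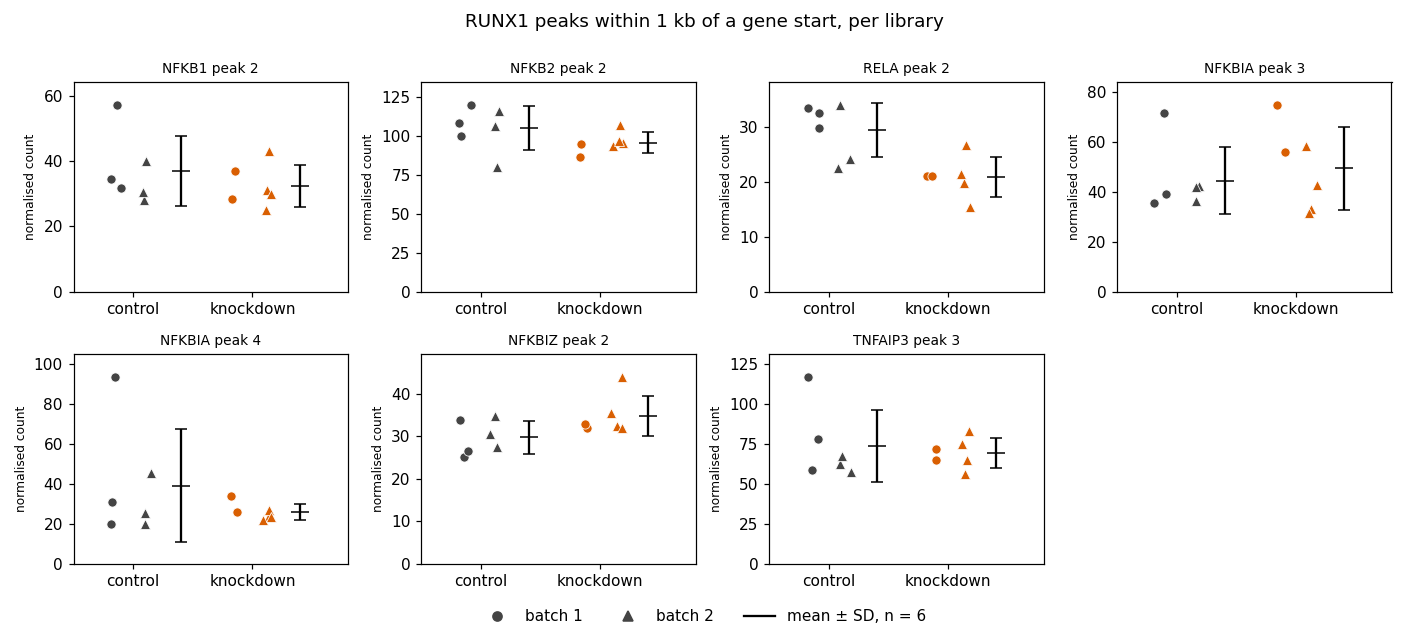
Normalised count per library (circles batch 1, triangles batch 2) in control (grey) and knockdown (orange) cells, with the mean ± SD of the 6 libraries beside the points, for the 7 peaks within 1 kb of a listed gene start. The groups overlap in every panel, and control replicate 1 is the highest control point at NFKB1 peak 2, NFKBIA peaks 3 and 4 and TNFAIP3 peak 3.

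Among the subunit genes, the losses of over 2-fold lay at REL and NFKB1. REL encodes c-Rel, a subunit of lymphoid and myeloid cells, and its peak 1 lay 13.1 kb upstream of the span (chr2:60867421-60868425), with no end of another protein-coding gene nearer. Batch 1 gave 33.8, 23.3 and 32.3 normalised counts in control and 14.6 and 11.2 in knockdown libraries, and batch 2 gave 29.5, 28.1 and 28.4 in control and 8.31, 11.9, 15.3 and 9.32 in knockdown libraries. Every knockdown library was thus below every control library of its batch. The mean fell from 29.2 ± 3.67 to 11.8 ± 2.79 (SD, n = 6 per group), with a fitted loss of 2.40-fold (log2FC -1.26, SE 0.25, DESeq2 adjusted p 4.5e-06). The strongest REL peak per kb, peak 2 inside the gene, had a log2 fold change of -0.28 ± 0.18 SE and was not called (DESeq2 adjusted p 0.224). The weak peak 3 on the other side, which overlaps PUS10, had a log2 fold change of 0.75 ± 0.37 SE and was not called (DESeq2 adjusted p 0.0835), but was called gained by edgeR (adjusted p 0.0443) and without control replicate 6 (0.0358), with adjusted p up to 0.304 over all alternatives.

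NFKB1, which encodes a precursor that is processed to a DNA-binding subunit, lost binding at a pair of weak peaks. Peak 1 lay 46.6 kb upstream (chr4:102454234-102454745) and ranged from 9.22 over a median of 14.1 to 18.6 in control and from 5.48 over 7.18 to 8.29 in knockdown libraries. The groups did not overlap there (log2FC -1.06, SE 0.34, DESeq2 adjusted p 0.0061). Peak 4 lay inside the gene, 77.8 kb from its start (chr4:102579754-102580225), and had the largest fitted loss of the 42 peaks, 4.39-fold (log2FC -2.14, SE 0.48, DESeq2 adjusted p 4.8e-05). It rests on few reads: the control libraries held 10, 17, 10, 4, 16 and 14 raw reads and the knockdown libraries 6, 2, 0, 4, 1 and 10, and the groups overlapped in batch 2. Only 1.97% of all peaks had a lower mean signal per kb than peak 4. The other peaks of NFKB1 had log2 fold changes of -0.12 (peak 2, at the start), 0.071 (peak 3, in the gene) and 0.51 (peak 5, which overlaps MANBA) and were not called.

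The losses assigned to NFKB2 and RELA lay over other genes. NFKB2, the gene of the precursor in the alternative pathway, had its call at peak 3 (chr10:102431924-102433264), 29.4 kb downstream at an end of CUEDC2, with 45.4 ± 6.60 normalised counts in control and 32.7 ± 5.88 in knockdown cells (SD, n = 6 per group; log2FC -0.43, SE 0.18, DESeq2 adjusted p 0.0416). This call was lost without any 1 of 8 libraries (control replicates 1, 4, 5 and 6 and knockdown replicates 2, 3, 5 and 6), with DESeq2 adjusted p from 0.0693 to 0.122. It was also lost with reads in peaks as size factors (DESeq2 adjusted p 0.0519). RELA encodes the main activating subunit, and its call lay at peak 4 (chr11:65711277-65712736), 47.4 kb upstream at an end of KAT5, where counts fell from 46.8 ± 8.05 to 32.4 ± 5.36 (log2FC -0.51, SE 0.18, DESeq2 adjusted p 0.0165). The 10 Mb around RELA had a median log2 fold change of -0.34 itself. Relative to that median the change at peak 4 was -0.17 and no longer called (adjusted p 0.489), and the DESeq2 call was also lost without control replicate 4 (adjusted p 0.0515) or control replicate 5 (0.0783), with adjusted p from 0.0093 to 0.489 over all alternatives. The other 3 RELA peaks had log2 fold changes from -0.46 to -0.14.

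RELB, the partner subunit of the alternative pathway, kept its 6 peaks without a call. Its log2 fold changes ran from -0.46 to 0.00049, the latter at peak 2 (chr19:45001544-45002504), 80 bp inside an end of the gene, where the means were 22.9 ± 4.42 in control and 23.0 ± 8.88 in knockdown cells (SD, n = 6 per group). The largest departures lay at peaks 5 and 6, which are over 36 kb from RELB and overlap GEMIN7 (log2 fold changes -0.33 ± 0.15 and -0.46 ± 0.23 SE). Peak 5 was called lost by edgeR, without the batch covariate, after centring on the surrounding 10 Mb and without control replicate 4 (adjusted p 0.0198 without that library, 0.0106 to 0.227 over all alternatives). Peak 6 was called lost without control replicate 2 (DESeq2 adjusted p 0.0169) or 3 (0.0488) and after centring (0.0169 to 0.379 over all alternatives).

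Among the regulators, TNFAIP3 had the most calls, in both directions. It encodes a ubiquitin-editing enzyme that shuts NF-kappaB signalling down and is itself a target of NF-kappaB. Its upstream peak 2, at 18.8 kb from the span (chr6:137846263-137847512), had the lowest adjusted p of the 42 peaks. In batch 1 the control libraries held 114, 94.0 and 106 and the knockdown libraries 40.2 and 22.4 normalised counts. In batch 2 they held 79.8, 109 and 86.4 in control and 30.9, 32.4, 21.7 and 23.3 in knockdown cells. The highest knockdown library was below the lowest control library, and the mean fell from 98.3 ± 13.7 to 28.5 ± 7.32 (SD, n = 6 per group), with a fitted loss of 3.43-fold (log2FC -1.78, SE 0.16, DESeq2 adjusted p 1.5e-24). In control cells peak 2 held 78.6 normalised counts per kb, more than the start peak of TNFAIP3 with 35.3, whereas in knockdown cells it held 22.8 against 33.2.

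Farther from the gene on the same side, TNFAIP3 peak 1 (33.7 kb upstream, chr6:137832059-137832646) moved the other way. It ranged from 9.22 over a median of 14.8 to 20.8 in control and from 22.8 over 29.3 to 38.0 in knockdown libraries, with no overlap (log2FC 0.94, SE 0.25, DESeq2 adjusted p 0.000835). Downstream, a gained and a lost peak again lay next to each other. Peak 5, at 27.1 kb (chr6:137910456-137911017), rose from 21.4 ± 2.79 to 32.5 ± 8.50 (SD, n = 6 per group; log2FC 0.60, SE 0.23, DESeq2 adjusted p 0.0243), and this call was lost without control replicate 2 (adjusted p 0.0537), control replicate 4 (0.0585) or knockdown replicate 1 (0.201), with adjusted p from 0.0049 to 0.201 over all alternatives. Peak 6, at 44.0 kb (chr6:137927262-137928477), fell from 77.1 ± 10.0 to 44.7 ± 6.37, a loss without overlap between the groups (log2FC -0.77, SE 0.15, DESeq2 adjusted p 1.9e-06). Both peaks inside the gene had log2 fold changes near 0 (-0.053 and -0.024). Peaks 5 and 6, like NFKB1 peak 1, were singled out after their values were seen.

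NFKBIZ encodes IκBζ, an inducible nuclear member of the IκB family that assists transcription of secondary response genes. Its peak 3 lay 37.6 kb downstream between genes (chr3:101898597-101899243). In batch 1 the control libraries held 31.2, 33.5 and 25.3 and the knockdown libraries 5.48 and 7.24 normalised counts, and in batch 2 the control libraries held 41.6, 19.9 and 16.9 and the knockdown libraries 14.3, 3.96, 4.46 and 10.3. The highest knockdown library lay under the lowest control library, and the fitted loss was 3.81-fold (log2FC -1.93, SE 0.32, DESeq2 adjusted p 2.2e-08). The strongest NFKBIZ peak, peak 1 at an end of NXPE3, had a log2 fold change of -0.11 ± 0.16 SE.

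At NFKBIA the change was a gain. Peak 1 lay 21.4 kb downstream of the gene (chr14:35379431-35380088) and held 6.50, 6.51 and 6.91 normalised counts in control and 19.2 and 11.2 in knockdown libraries of batch 1. In batch 2 it held 3.47, 5.86 and 6.32 in control and 16.6, 26.4, 22.3 and 19.6 in knockdown libraries. The groups did not overlap, and the mean rose from 5.92 ± 1.25 to 19.2 ± 5.15 (SD, n = 6 per group). The fitted gain of 3.05-fold was the largest of the 42 peaks (log2FC 1.61, SE 0.36, DESeq2 adjusted p 3.9e-05). The control level rests on 2 to 7 raw reads per library. The other 4 peaks of NFKBIA were not called.

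BCL3 encodes a nuclear IκB protein that binds subunit dimers on DNA and can activate or repress their targets. Its peak 3 lay 10.2 kb downstream (chr19:44770235-44771087), 6782 bp from an end of CBLC, and was stronger per kb than 98.6% of all peaks. Control libraries held 50.7, 77.2 and 70.3 in batch 1 and 88.5, 76.2 and 70.6 normalised counts in batch 2, and knockdown libraries 106 and 109.95 in batch 1 and 139, 116, 101 and 107 in batch 2. The lowest knockdown library was above the highest control library, and the mean rose from 72.2 ± 12.45 to 113 ± 13.6 (SD, n = 6 per group), with a fitted gain of 1.54-fold (log2FC 0.62, SE 0.13, DESeq2 adjusted p 1.4e-05). The neighbouring peaks 1 and 2, some 25 kb upstream, had log2 fold changes of 0.27 and -0.087 and were not called.

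NFKBIE, which encodes the inhibitor IκBε, had its call at the far edge of the window. Peak 4 (chr6:44312911-44313671) lay 47.4 kb from the gene at an end of AARS2 and went from 48.0 ± 6.09 to 34.9 ± 5.94 normalised counts (SD, n = 6 per group; log2FC -0.42, SE 0.18, DESeq2 adjusted p 0.0439). Leaving out any of 11 libraries, all but knockdown replicate 5, ended this call, with DESeq2 adjusted p from 0.0506 to 0.129. The call also ended with reads in peaks as size factors (DESeq2 adjusted p 0.0540) and after centring on the surrounding 10 Mb (adjusted p 0.0549). The peak of this window with the largest count, peak 3 at an end of the chaperone gene HSP90AB1 (chr6:44245852-44248247), had a log2 fold change of -0.24 ± 0.11 SE and was not called (DESeq2 adjusted p 0.0646). It was called lost by edgeR (adjusted p 0.0436) and by DESeq2 without the batch covariate (0.0422). DESeq2 also called it lost without knockdown replicate 2 (0.0427) or 3 (0.0429), with adjusted p from 0.0422 to 0.233 over all alternatives. All 4 NFKBIE peaks had negative log2 fold changes, the smallest being -0.089.

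**Figure D4:**
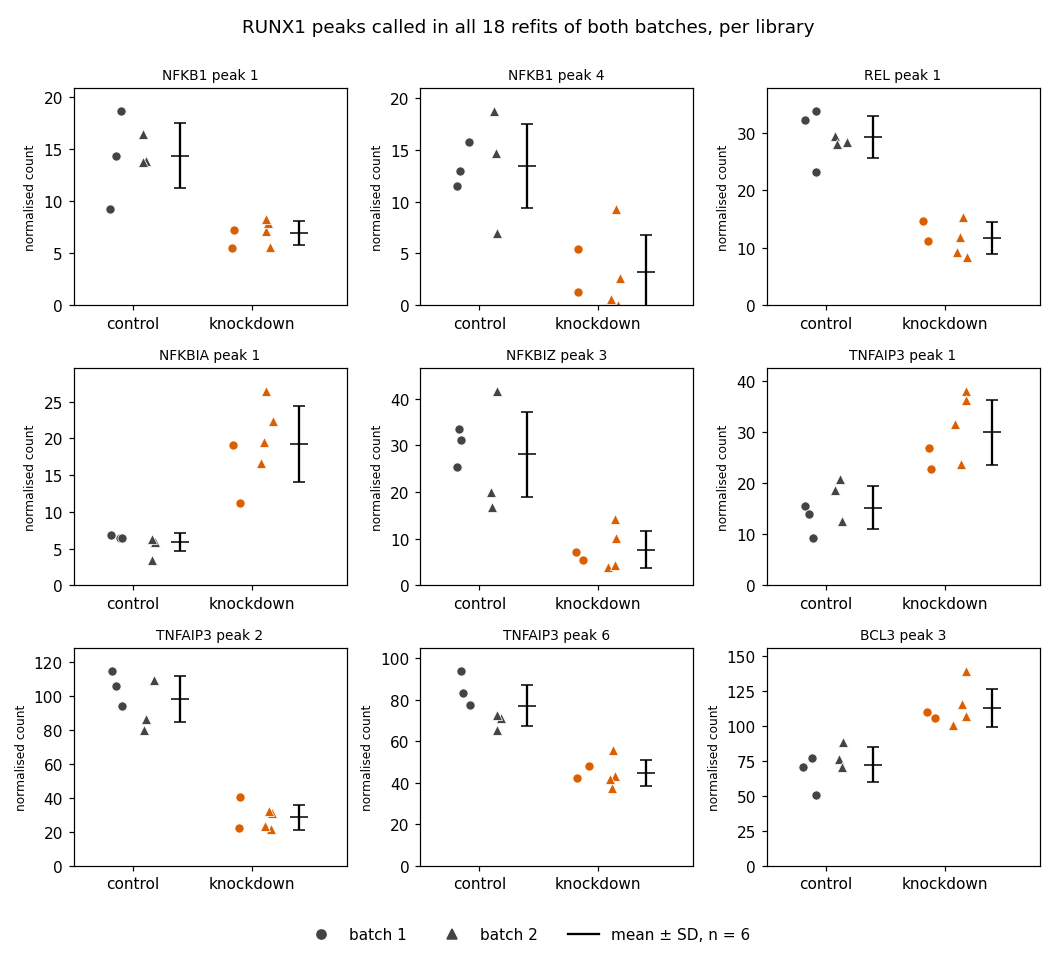
Normalised count per library (circles batch 1, triangles batch 2) in control (grey) and knockdown (orange) cells, with the mean ± SD of the 6 libraries, for the 9 peaks called in the fit of both batches and in all 18 refits of it. The groups are separate in 8 panels and overlap at NFKB1 peak 4, where the lower SD bar is cut at 0.

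Within batch 1 alone, DESeq2 called 3 of the 42 peaks, all lost (NFKBIZ peak 3 and TNFAIP3 peaks 2 and 6), beside 12% of all peaks (5.38% gained, 6.61% lost). Within batch 2 alone it called 7 (25.8% of all peaks, 12.8% gained and 13.1% lost). Of these, 3 were gained (NFKBIA peak 1, TNFAIP3 peak 1, BCL3 peak 3) and 4 were lost (the same 3 peaks and REL peak 1). In both batches, every knockdown library was above every control library at those 3 gained peaks (14.4% of all peaks) and below at 5 peaks (13.9% of all peaks), which were REL peak 1, NFKB1 peak 1, NFKBIZ peak 3 and TNFAIP3 peaks 2 and 6. The sign of the log2 fold change was the same in both batches for 32 of the 42 peaks (76.2%), beside 80.0% of all peaks, and for each of the 13 called peaks, which were called on both batches together. A difference of the effect between batches was found at 0 of all 26642 peaks, and so at 0 of the 42 (DESeq2 interaction, adjusted), while an unadjusted p under 0.05 was found at 2.51% of all peaks and at 0 of the 42.

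**Figure D5:**
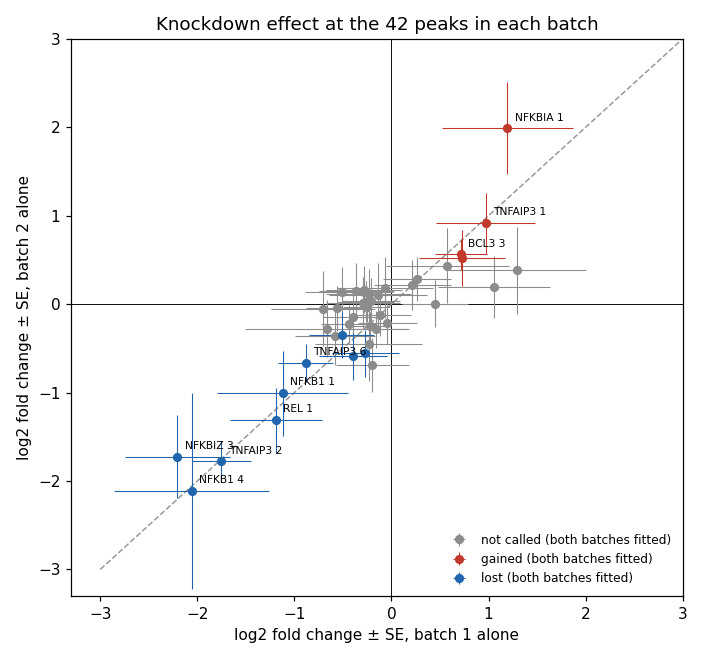
Log2 fold change ± SE in batch 1 alone (x axis) against batch 2 alone (y axis) for the 42 peaks, coloured by the call over both batches (red gained, blue lost, grey not called), with the line of equal values dashed. Labels name the 9 peaks called in all 18 refits, and the 13 coloured points lie in the lower left or upper right quadrant.

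Binding around other genes of the pathway was counted from a list that named 32 kinases, adaptors, ubiquitin enzymes and other inhibitors, of which all but TNIP3 had a peak. Of their 125 peaks, none of which was among the 42, 52 were called (41.6%, beside 42.0% of all peaks), with 30 gained (24.0%, beside 21.3%) and 22 lost (17.6%, beside 20.7%). Kinases and scaffold had 8 gained and 3 lost of 24 peaks, adaptors 10 and 6 of 43, ubiquitin ligases and deubiquitinases 4 and 8 of 28, and the other inhibitors 8 and 5 of 30. The peak with the lowest adjusted p in each of these roles lay in the window of MAP3K14, a kinase of the alternative pathway, of TRAF6, a signalling adaptor, of RBCK1, a subunit of the linear ubiquitin ligase, and of TNIP2, an inhibitor that binds the TNFAIP3 protein. The first overlaps FMNL1 (chr17:45239555-45240679) and rose from 22.7 ± 4.50 to 83.2 ± 13.1 normalised counts (SD, n = 6 per group; MAP3K14 peak 3, log2FC 1.82, SE 0.19). TRAF6 peak 2, which overlaps PRR5L, had a log2 fold change of 1.40 ± 0.18 SE, RBCK1 peak 5, over TRIB3, of -0.75 ± 0.12 SE and TNIP2 peak 2 of -1.35 ± 0.24 SE. In each of these 4 peaks the groups did not overlap in either batch. The peaks were picked for their low adjusted p in the same libraries, so this adds no support to them.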

How the data were processed

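RUNX1 ChIP-seq libraries of THP-1 cells were compared (6 control, 6 knockdown). The labels also list 8 IgG libraries, which were not analysed here. As the methods of the study state, reads were aligned with bowtie2 by the authors and filtered for duplicates and for chromosomes other than the primary ones. Peaks came from macs2, run for each condition in each batch, and those reproducible between batches were merged over conditions and counted with featureCounts (versions not given in the sources used here). The deposited values are raw counts per peak and library. Peak widths, another column that the authors deposited, served as other information. Peak calling used the very libraries compared here. The methods name a mouse build and the submitters' notes both GRCm38 and GRCh38. The coordinates were taken as GRCh38, since 24.4% of peaks were found 1 kb or less from either end of some protein-coding gene, against 5.48% and 5.72% after moving all peaks by 1 Mb either way.

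Counts were tested over all 26642 peaks with DESeq2 1.42.0 in R 4.3.3 (Wald test, batch as covariate, Benjamini-Hochberg adjustment), and within each batch. Alternatives were edgeR 4.0.16, other size factors and models, count and fold filters, windows of 10 and 100 kb, centring on the median of the surrounding 10 Mb and leaving out each library. Ranges of adjusted p over all alternatives leave out the filters, the windows and the fits of 1 batch. The code was checked on simulated counts. Pairs of libraries within a group had a chi-square over its degrees of freedom of 1.29 to 2.24, above sampling noise, so none was counted as a duplicate. P-values measure the spread between libraries of 1 cell line, not between independently derived lines with each cassette. The 10 genes, the pathway list and the tests were chosen with earlier results of these data known. Named by rule were, per gene, the peak nearest the start, the one with the largest mean count and the gained and the lost call with the lowest adjusted p, and per pathway role the peak with the lowest adjusted p. Other peaks named with values were chosen after these were seen. The NF-kappaB consensus read GGG, a purine, any base, A or T, a pair of pyrimidines and CC. Promoters are from RefSeq (GRCh38.p14).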

Additional observations from a re-analysis of the deposited data

Results flagged for a closer look

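Over the 42 peaks, each group of 6 libraries was searched for 1 library far from the others (84 groups, of which chance would give about 4.2), and 6 were found. In 4 of these it was control replicate 1 that stood high, with 93.6 normalised counts at RELB peak 6 (26.0 to 43.8 in the other control libraries), 71.5 at NFKBIA peak 3 (35.7 to 42.2), 93.6 at NFKBIA peak 4 (19.6 to 45.1) and 117 at TNFAIP3 peak 3 (57.5 to 78.2). None of these peaks was called, with or without this library. At NFKBIA peak 1, control replicate 4 was lowest with 3.47 (5.86 to 6.91), which is 2 raw reads. At NFKBIZ peak 2, knockdown replicate 3 was highest with 43.9 (31.9 to 35.4).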

How the results depend on the processing

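Of the 13 calls, 9 were kept in all 18 refits of both batches (edgeR, 2 other size factors, no batch, replicate block, centring, 12 left-out libraries), and 25 of the 29 other peaks were called in none. The exceptions are named in the report. The 13 calls (4 gained, 9 lost) of 42 peaks became 10 to 13 without 1 library (3 to 5 gained, 6 to 9 lost). Of all peaks, 36.6% to 40.4% were called without 1 library. The calls became 3 in batch 1 (0 gained, 3 lost) and 7 in batch 2 (4 lost), with the shares of all peaks given above. Over 2-fold, 6 were called (1 gained, 5 lost), beside 17.1% of all peaks. Within 10 kb, 1 of 18 peaks was called (0 gained, 1 lost), and within 100 kb 26 of 74 (10 gained, 16 lost). These windows hold other numbers of peaks, so their counts are not comparable with the 13. A minimum of 10 counts in every library left 31 peaks with 7 of the calls. Of these 31 peaks 4 were called (2 gained, 2 lost), beside 32.2% of the 18255 peaks left in all. The median log2 fold change ran from -0.19 to -0.10 without 1 library. With edgeR, batch 1 gave 7 calls (2 gained, 5 lost) and batch 2 gave 12 (9 lost). For these fits, and for those of 1 batch without 1 library, the share of all peaks was not counted. Without 1 library, batch 1 gave 0 to 2 (0 gained, 0 to 2 lost), with 0 when knockdown replicate 2 was left out. Batch 1 has 2 knockdown libraries, so without either of them the spread came from the controls and the lone knockdown library was assumed to vary like them. Batch 2 gave 4 to 7 (1 to 3 gained, 3 to 5 lost), with 4 without control replicate 5. The 52 pathway calls (30 gained, 22 lost) of 125 peaks were 44 to 53 without 1 library (24 to 29 gained, 17 to 24 lost). Within 10 kb, 22 of 61 pathway peaks were called (10 gained, 12 lost). Among the called and the rule-named peaks, signs turned at peaks that were not called: NFKB1 peak 2 (-0.22 to 0.015 without 1 library, above 0 without control replicate 1, and 0.017 in batch 2 alone), RELA peak 1 (0.19 centred), NFKBIZ peak 1 (0.028 in batch 2) and TNFAIP3 peak 3 (0.097 centred, -0.12 to 0.077 without 1 library, above 0 without control or knockdown replicate 1, and 0.14 in batch 2). The cause was not tested.

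Deviations of same-numbered libraries from their group mean correlated at -0.090 to 0.23, and at -0.10 to 0.012 with the batch means removed, so the numbers were not taken to pair the libraries. With the number as a block in place of batch, 10 peaks were called, beside 35.6% of all peaks. The calls at NFKB2 peak 3, NFKBIE peak 4 and TNFAIP3 peak 5 were lost in that fit. Depth limits the weak peaks, where control counts of 2 to 20 reads leave wide errors, and reads in peaks, not all mapped reads, set the scaling.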
